A study of Mus musculus with 6 samples.

Results

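mmu-miR-375-3p, mmu-miR-7a-5p, mmu-miR-7b-5p and mmu-miR-184-3p, written here without the species prefix, are mouse miRNAs known to be enriched in pancreatic islets and other endocrine cells. They were taken by name as 4 of the 1982 rows of a table of mature miRNA counts from serum exosomes, vesicles shed by cells that reach the bloodstream. The exosomes came from 6 male C57BL/6 mice aged 3 months, with 1 small RNA library for each mouse. Sham mice (mice 1, 2 and 3) were needled without current, beside the points used for treatment and with the leads attached. Acu/LFES mice (mice 4, 5 and 6) received acupuncture with low frequency electrical stimulation of the hindlimb once, for 30 min. Exosomes in serum come from many organs, so the libraries hold the sum of what all of them released. The time between treatment and bleeding is not given for these samples in the sources used here.

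A miRNA is a short RNA that guides a silencing complex to mRNAs, mainly through the seed, bases 2 to 8 of its mature form. miR-375 is abundant in the alpha and beta cells of the islet, where it restrains insulin secretion and is needed for normal endocrine cell mass, and it is also made in pituitary and in gut epithelium. miR-7 is abundant in islets, pituitary and neurons, and is known to restrain insulin release and growth signaling. miR-184 is made in beta cells, where it targets Argonaute2, and it is also abundant in the epithelium of the cornea and lens.

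The mature sequences show how these miRNAs relate to each other. Of the members, 3 of 4 were matched by name to a RefSeq sequence (GRCm38.p6), and miR-375-3p was not. The capitals mark the seed, and miR-7a-1-3p is shown because it is the other arm of a miR-7a hairpin and was counted in these libraries.
miR-7a-5p: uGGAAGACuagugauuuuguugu
miR-7b-5p: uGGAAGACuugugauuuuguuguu
miR-184-3p: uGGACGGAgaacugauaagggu
miR-7a-1-3p: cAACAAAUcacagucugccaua
miR-7a-5p and miR-7b-5p share a seed and differ over their common 23 bases by the single substitution A10U, with positions counted from the 5′ end and the base of miR-7a-5p first. Among the 1623 rows of the table that matched a RefSeq mature sequence, this seed was found in these 2 rows alone, and that of miR-184-3p in its own row alone.

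The members come from 5 genes on separate chromosomes, given here on GRCm38 with the GENCODE M21 annotation. Mir375 lies on chromosome 1 from 74900658 to 74900721 on the minus strand, between genes, with the coding gene Cfap65 1350 bases away. miR-7a-5p is made from a pair of genes. Mir7-1 sits inside an intron of Hnrnpk, on the same minus strand, at bases 58392779 to 58392886 of chromosome 13, and Mir7-2 lies between genes on chromosome 7 from 78888277 to 78888373 on the plus strand. Mir7b lies between genes on chromosome 17 from 56242988 to 56243098 on the plus strand, and Mir184 between genes on chromosome 9 from 89802260 to 89802328 on the minus strand.

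Library totals ran from 391708 to 658833 counts in the sham mice and from 517421 to 1504137 in the Acu/LFES mice. miR-486a-5p and miR-486b-5p, red cell miRNAs listed with identical counts, took between 61.7% and 74.0% of the counts of mice 1 to 5 and 29.2% in mouse 6, whose library therefore stood apart. Levels are normalized CPM, counts for every 1000000 counts after scaling each library by its TMM factor, which is set by the miRNAs that change least. The smallest factor was 0.65, for sham mouse 2, and the largest was 2.12, for Acu/LFES mouse 6. A miRNA with 0 counts could still have stood at up to 3 counts, which is 4.33, 7.01 and 9.93 CPM in sham mice 1, 2 and 3 and 1.80, 6.25 and 2.74 CPM in Acu/LFES mice 4, 5 and 6. Intervals and these limits cover counting error only.

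miR-375-3p was the most counted member in every mouse. It had 321, 149 and 149 counts in sham mice 1, 2 and 3, or 464, 348 and 493 CPM. Acu/LFES mice 4, 5 and 6 had 299, 92 and 242 counts, or 179, 192 and 221 CPM. Every Acu/LFES mouse lay below every sham mouse on this scale, and the groups did not overlap. Sham mice averaged 435 ± 76.6 CPM and Acu/LFES mice 197 ± 21.6 CPM (SD, 3 mice per group). The log2 fold change of Acu/LFES over sham was -1.14 with a standard error of 0.31, so the sham level was 2.20 times the Acu/LFES level. In a serum library, fewer vesicles from a cell type and less of a miRNA in each vesicle cannot be told apart. Nor can more RNA from other sources, since CPM is a share of each library and not an amount. The study reported a higher exosome concentration in serum after Acu/LFES.

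These values are a description and not a test. The members were chosen by name from among miRNAs whose counts in these 6 libraries, and whose differences between the groups, were already known. edgeR's quasi-likelihood test was fitted across all 259 miRNAs that passed its filter on low counts, of which miR-375-3p and miR-7a-5p were the members. With an adjusted p under 0.05 it called 0 of these 2, against 0.00% of all miRNAs tested. Without adjustment it called miR-375-3p at a p under 0.05, against 8.88% of all. DESeq2's Wald test, fitted to the same miRNAs, called miR-375-3p after adjustment, against 3.09% of the 259 fitted. It gave no adjusted p to miR-7a-5p, so its adjustment did not cover all of the 259. Of the miRNAs tested, 8.11% had 3 Acu/LFES mice below 3 sham mice without overlap, and miR-375-3p was one of them.

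**Figure D1:**
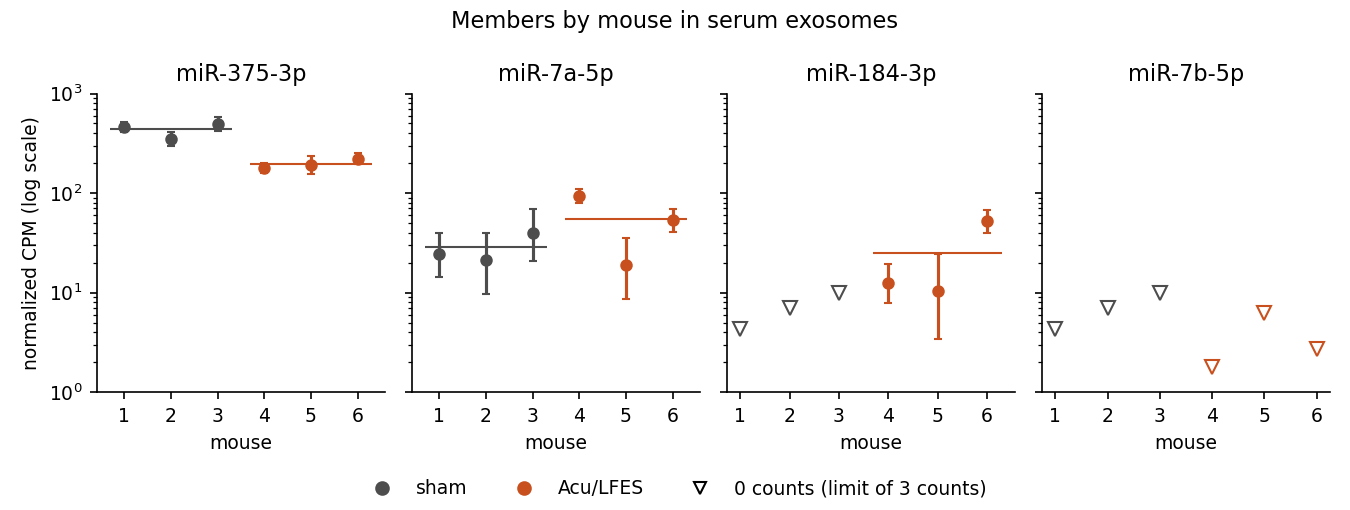
Normalized CPM of the 4 members in each of the 6 mice on a log scale. Points are mice with 95% exact Poisson intervals, lines are group means, and open triangles mark the limit of 3 counts in mice with 0 counts. miR-375-3p is lower in mice 4 to 6 than in mice 1 to 3, miR-7a-5p overlaps between the groups, miR-184-3p was counted in the Acu/LFES mice only, and miR-7b-5p in no mouse.

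Counting error was small beside these levels. The 95% exact Poisson interval of miR-375-3p ran from 414 to 517 CPM in sham mouse 1, from 295 to 409 CPM in sham mouse 2 and from 417 to 579 CPM in sham mouse 3. Sham mouse 2 was thus below the other sham mice by more than counting error. The intervals were 160 to 201, 155 to 235 and 194 to 251 CPM in Acu/LFES mice 4, 5 and 6, so each overlapped the other 2. By rank of counts within its own library, miR-375-3p was at place 69, 79 and 64 in the sham mice and at place 103, 97 and 90 in the Acu/LFES mice. More miRNAs were detected in the Acu/LFES libraries, between 489 and 666 against 338 to 453.

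The separation of the groups depended on the scaling. In CPM of the plain total, miR-375-3p was 514, 226 and 380 in sham mice 1, 2 and 3 and 199, 146 and 468 in Acu/LFES mice 4, 5 and 6. On that scale mouse 6 lay above sham mice 2 and 3, the groups overlapped, and the log2 fold change was -0.46. Plain totals shifted the median of log2 fold changes over the tested miRNAs from 0.05 to 0.71, and relative to that median miR-375-3p was at -1.18, against -1.19 with TMM factors. When both miR-486 rows were dropped before totals were taken, sham mice stood at 1342, 869 and 1319 CPM, Acu/LFES mice stood at 521, 550 and 660 CPM, and the groups were again separate.

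Ratios within a library need no scaling. The log2 ratio of miR-375-3p to miR-16-5p, an abundant blood miRNA, was -3.96, -4.54 and -3.94 in sham mice 1, 2 and 3 and -5.91, -5.06 and -5.21 in Acu/LFES mice 4, 5 and 6. The Acu/LFES mice were lower without overlap, by -1.25 in the mean. Against miR-103-3p, which the study used as its reference in serum, the log2 ratio of sham mice was -0.65, -1.98 and -0.13, and that of Acu/LFES mice was -2.53, -1.68 and -1.55. Here sham mouse 2 fell within the Acu/LFES range, and the means were -0.92 ± 0.95 and -1.92 ± 0.53 (SD, n = 3 each). miR-103-3p itself spread widely among the sham mice, with 730, 1372 and 540 CPM. Of the 210 other tested miRNAs with a count in every mouse, 111 (52.9%) served as a reference against which every Acu/LFES mouse had a lower ratio of miR-375-3p than every sham mouse, and 0 gave the opposite. The median of that percentage over all 211 such miRNAs was 2.86%, and miR-3535, named here after its value was seen, was the only one above miR-375-3p, at 64.3%. Just below it were let-7e-5p at 51.0% and let-7c-5p and miR-429-3p at 49.5% each, also named after their values were seen. miR-375-3p was chosen with its counts in these libraries known, so these ratios describe the same separation and add no support to it.

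**Figure D2:**
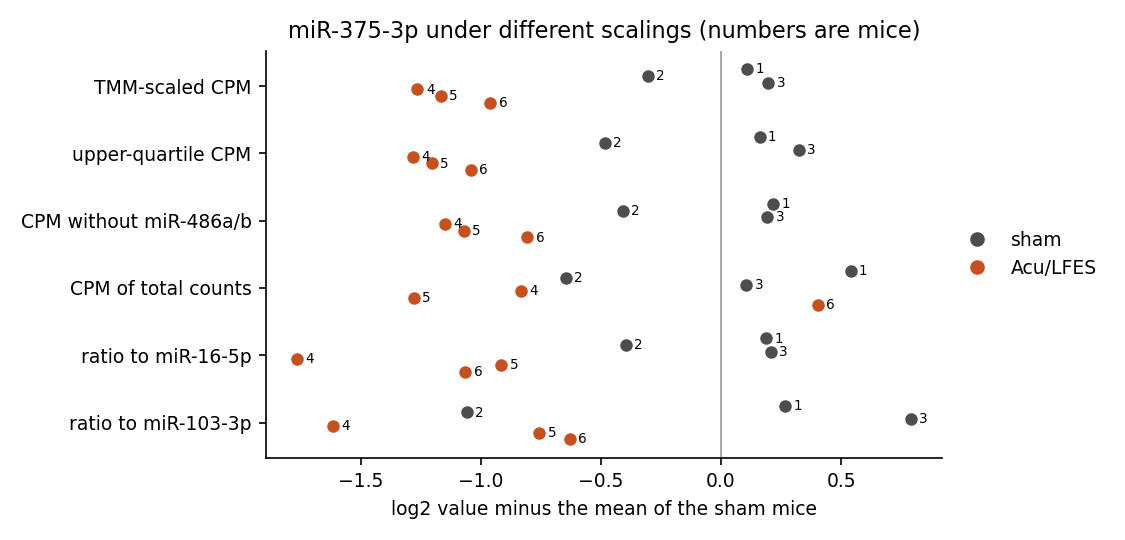
miR-375-3p in each mouse as a log2 value minus the mean of the 3 sham mice, under 6 scalings. Acu/LFES mice (orange) are left of all sham mice (grey) with TMM, upper-quartile and miR-486-free scaling and against miR-16-5p, while mouse 6 with total counts and mouse 2 against miR-103-3p break the separation.

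The miRNAs with the profile most like that of miR-375-3p over the 6 mice were let-7b-5p, let-7c-5p, miR-99b-5p and miR-378d. Likeness was the root mean square difference between log2 CPM profiles, each centred on its own mean, and it was 0.23 for let-7b-5p, 0.23 for let-7c-5p, 0.30 for miR-99b-5p and 0.32 for miR-378d. The median over all other tested miRNAs was 0.92. Their log2 fold changes were -0.86, -0.93, -0.80 and -0.83 in that order, each nearer to 0 than that of miR-375-3p. Their levels were far apart, from between 14758 and 31876 CPM for let-7b-5p to between 10.4 and 25.7 CPM for miR-378d. These values are a description, and all profiles share the same 6 libraries and the same TMM factors.

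miR-7a-5p was the second member in level in the sham mice. It had 17, 9 and 12 counts in sham mice 1, 2 and 3, or 24.6, 21.0 and 39.7 CPM, and 156, 9 and 58 counts in Acu/LFES mice 4, 5 and 6, or 93.6, 18.8 and 53.0 CPM. Mice 4 and 6 were above every sham mouse, but mouse 5 was the lowest of the 6, so the groups overlapped. Sham mice averaged 28.4 ± 9.94 CPM and Acu/LFES mice 55.1 ± 37.4 CPM (SD, 3 mice per group). The log2 fold change was 0.98 with a standard error of 0.83, and it was 0.35 without Acu/LFES mouse 4 and 1.69 with plain totals. The interval of mouse 5, from 8.57 to 35.6 CPM, overlapped that of each sham mouse, while that of mouse 4, from 79.5 to 109 CPM, lay above them all. Of 210 reference miRNAs, 7 (3.33%) gave a ratio of miR-7a-5p that was higher in every Acu/LFES mouse, and 0 gave one that was lower.

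miR-7a-5p and miR-375-3p thus had fold changes of opposite sign in the same libraries. With plain totals, upper-quartile factors, totals without the miR-486 rows and each mouse left out, miR-375-3p stayed negative and miR-7a-5p positive. All of these reuse the same libraries. The miR-7a-5p value of 0.98 had a standard error of 0.83, and its groups overlapped. The profiles most like that of miR-7a-5p were those of miR-21a-5p, miR-30e-5p, let-7c-2-3p and let-7a-1-3p, at 0.52, 0.54, 0.58 and 0.58, against a median of 1.08. The last 2 were listed with identical counts and are a single measurement. miR-21a-5p, an abundant miRNA of many cell types, was 7652, 10456 and 8715 CPM in the sham mice and 17429, 7626 and 10764 CPM in the Acu/LFES mice. As with miR-7a-5p, mouse 4 was the highest and mouse 5 the lowest.

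**Figure D3:**
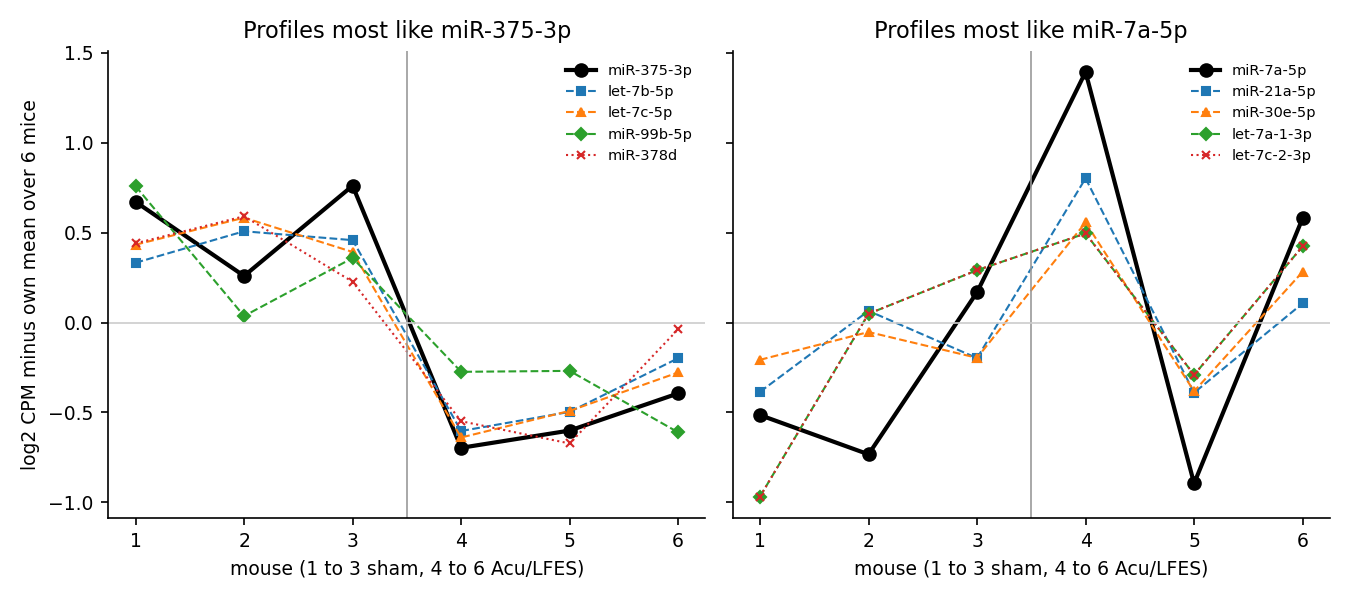
Log2 CPM of miR-375-3p (left) and miR-7a-5p (right) in each mouse, minus the mean over the 6 mice, with the 4 most alike miRNAs. Lines only guide the eye. The miR-375-3p set is high in mice 1 to 3 and low in mice 4 to 6, and the miR-7a-5p set peaks in mouse 4 and dips in mouse 5.

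The arms of miR-7a were counted in unequal shares. A miRNA hairpin gives a 5p and a 3p arm, of which one is usually kept and the other degraded. miR-7a-1-3p, the 3p arm of Mir7-1, had 42, 29 and 0 counts in sham mice 1, 2 and 3 and 34, 7 and 4 counts in Acu/LFES mice 4, 5 and 6. miR-7a-5p made up 28.8% and 23.7% of the counts of both arms in sham mice 1 and 2, with 95% exact binomial intervals of 17.8% to 42.1% and 11.4% to 40.2%. In sham mouse 3 the share was 100% of 12 counts, with an interval from 73.5%. In Acu/LFES mice 4, 5 and 6 it was 82.1%, 56.3% and 93.5%, with intervals of 75.9% to 87.3%, 29.9% to 80.2% and 84.3% to 98.2%. Sham mice 1 and 2 thus had more reads of the 3p arm than of the 5p arm, and sham mouse 3 lay above every Acu/LFES mouse, so the groups overlapped. Reads of the arms were not calibrated to amounts.

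Scaling cannot change this share, since both arms come from the same library. miR-7a-1-3p alone was 60.7, 67.8 and 0 CPM in the sham mice and 20.4, 14.6 and 3.66 CPM in the Acu/LFES mice, with a log2 fold change of -1.74 and a standard error of 1.24. Of the 5 partner arms of the members, it was the only one with a count. miR-375-5p, miR-7a-2-3p, miR-7b-3p and miR-184-5p had 0 counts in every mouse, and miR-7a-2-3p is the 3p arm of the other miR-7a gene. The 5p arm is the same in both genes, so its reads cannot be assigned to either.

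**Figure D4:**
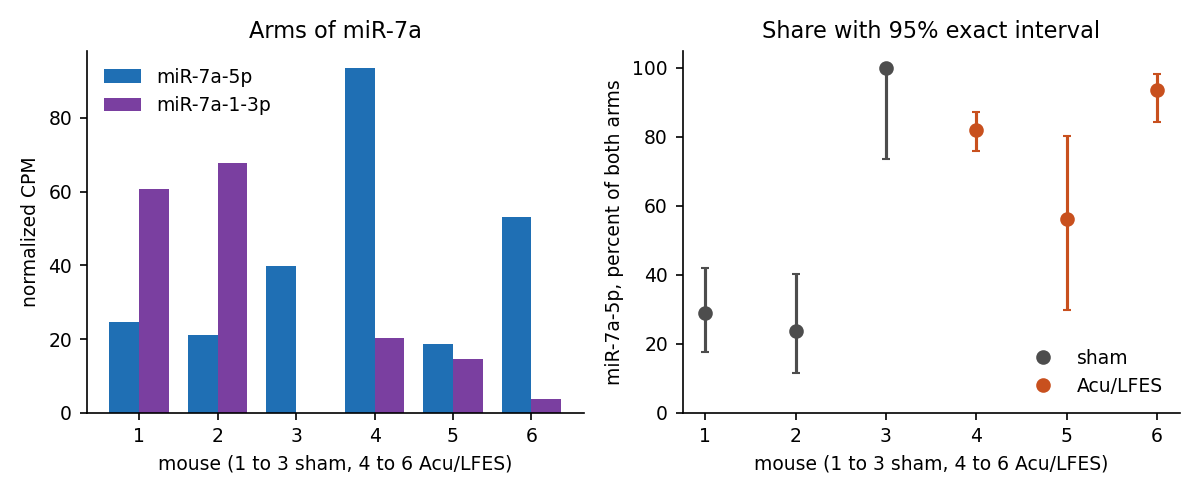
Left, normalized CPM of miR-7a-5p and miR-7a-1-3p in each mouse. Right, miR-7a-5p as a percent of the counts of both arms, with 95% exact binomial intervals. The 3p arm is the larger in mice 1 and 2 and the 5p arm in mice 3 to 6.

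miR-184-3p was counted in the Acu/LFES mice alone. It had 0 counts in each of the 3 sham mice and 21, 5 and 57 counts in Acu/LFES mice 4, 5 and 6, or 12.6, 10.4 and 52.1 CPM. The Acu/LFES mean was at least 2.52-fold higher than the highest sham limit of 9.93 CPM, which bounds the group mean rather than any single mouse. Mouse 5, at 10.4 CPM with an interval from 3.38 to 24.3 CPM, was barely above that limit, so its difference from sham mouse 3 was not detectable at this depth. Mouse 6 carried most of the level, and without it the bound was at least 1.22-fold. It was 5.75-fold with plain totals and 3.80-fold without sham mouse 3, whose library was the shallowest.

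The level of miR-184-3p did not follow the library totals among the Acu/LFES mice. Mouse 6, with the most miR-184-3p, had the smallest total of that group, at 517421 counts, and mouse 4 the largest, at 1504137. Sham mice 1 and 2 had larger totals than mouse 6, at 624982 and 658833 counts, with 0 counts of miR-184-3p. With the miR-486 rows left out, mouse 6 had 366539 counts, more than sham mice 1 and 2 at 239250 and 171521. Among the Acu/LFES mice, mouse 4 was then the largest at 573619 and mouse 5 the smallest at 167353. The counts of miR-184-3p were below the filter of the test. Of the 954 miRNAs with a count, 9 (0.943%), miR-184-3p among them, had 0 counts in every sham mouse and more than 3 in every Acu/LFES mouse, and 0 (0.00%) had the reverse pattern. Every Acu/LFES library also had more miRNAs detected than any sham library. The part of depth in these counts was not tested.

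miR-7b-5p had 0 counts in all 6 mice. The limit was at most 9.93 CPM in sham mouse 3 and lowest in Acu/LFES mouse 4, at 1.80 CPM. In mouse 4 the row of miR-7a-5p had 156 counts, so reads of the miR-7 pair all stood in the miR-7a row, and the sum of the pair equals miR-7a-5p. How the counting treated a mismatch, and so whether a miR-7b-5p read could have been listed as miR-7a-5p, is not given in the sources used here.

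The order of levels was compared as reads per mature miRNA, which at 22 to 24 bases for the matched members are of nearly equal length. Reads of different miRNAs were not calibrated to known amounts, so the order is one of reads and not of molecules. In the sham mice it was miR-375-3p, then miR-7a-5p, then miR-184-3p and miR-7b-5p at 0 counts. In each sham mouse the interval of miR-375-3p lay above that of miR-7a-5p. In Acu/LFES mouse 6, miR-7a-5p and miR-184-3p stood at 53.0 and 52.1 CPM and did not differ beyond counting error, and the same held in mouse 5, at 18.8 and 10.4 CPM. In mouse 4, miR-7a-5p was above miR-184-3p, at 93.6 and 12.6 CPM.

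**Figure D5:**
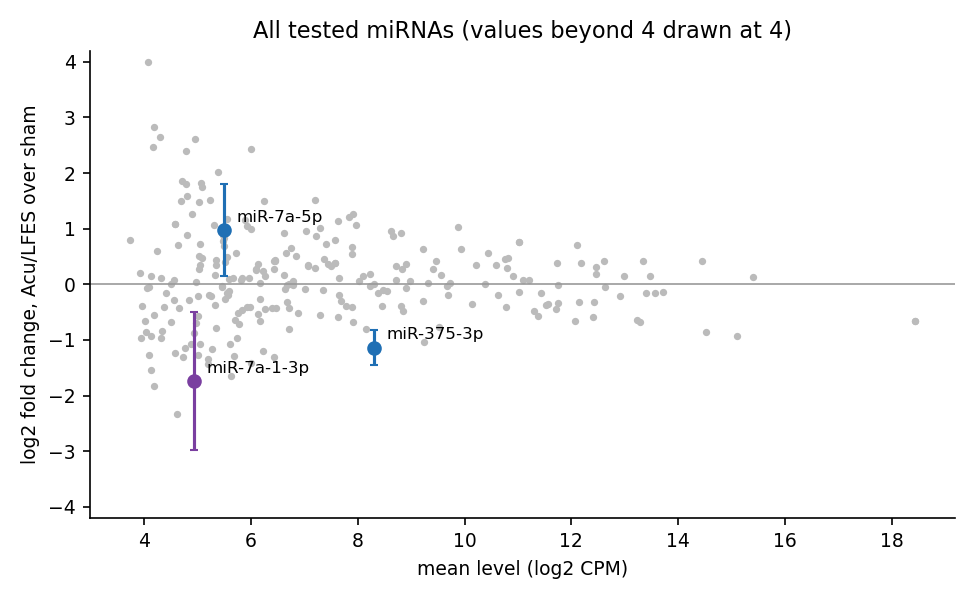
Log2 fold change of Acu/LFES over sham against mean level for the 259 tested miRNAs (grey), with miR-375-3p, miR-7a-5p and the partner arm miR-7a-1-3p drawn with their standard errors. 1 miRNA beyond the axis is drawn at 4. miR-375-3p lies below the miRNAs of like abundance, and miR-7a-5p and miR-7a-1-3p lie among the scattered low-count miRNAs.

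Other miRNAs with known roles in beta cells lay on both sides of 0. Of 16 such miRNAs, 13 had a count and 9 were tested. edgeR's quasi-likelihood test called 0 of the 9 after adjustment, and 2 with an unadjusted p under 0.05, miR-148a-3p and miR-34a-5p, against 8.88% of all miRNAs tested. miR-34a-5p had 0 counts in each sham mouse and passed the filter only through the Acu/LFES mice, so its direction was fixed by that filter. The median log2 fold change of the 9 was 0.28, against 0.05 over all miRNAs tested, with 6 above 0 and 3 below. miR-34a-5p counts among the 6, so the filter raised this median and no shift is read from it. miR-148a-3p, which is known to act on insulin gene expression, was 266, 311 and 222 CPM in the sham mice and 512, 473 and 569 CPM in the Acu/LFES mice. These groups did not overlap, and 8.88% of all miRNAs tested were higher in this way. miR-34a-5p, a target of p53, was 15.6, 33.3 and 32.0 CPM in the Acu/LFES mice. With TMM factors, 2 members of the list lay lower in every Acu/LFES mouse, as did 8.11% of all miRNAs tested, miR-375-3p among them. Neither of the 2 was called. miR-200c-3p, an epithelial miRNA also made in islets, was 376, 278 and 222 CPM in the sham mice and 194, 169 and 184 CPM in the Acu/LFES mice, with a log2 fold change of -0.68. miR-26a-5p had a log2 fold change of -0.19, and the nearest mice of its groups, sham mouse 1 and Acu/LFES mouse 4, were separated by less than counting error. miR-30d-5p, the most counted of the list, was 12685, 14124 and 11772 CPM in the sham mice and 11389, 10780 and 12263 CPM in the Acu/LFES mice, and the groups overlapped. The neuronal and islet miRNAs miR-9-5p and miR-124-3p were counted in mouse 4 only, and miR-153-3p, miR-96-5p and miR-338-3p in no mouse.

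Markers of other sources of the members were read beside them. Of 6 miRNAs of the acinar cells that surround the islets, 5 had 0 counts in every mouse. The remaining one, miR-217-5p, had 5 counts in mouse 4 alone, the deepest library. At 3.00 CPM it was below the limit of 3 counts in every sham mouse and in mouse 5. Of 6 miRNAs listed for gut epithelium all were tested. edgeR's quasi-likelihood test called 0 of them at an adjusted or an unadjusted p under 0.05, against 0.00% and 8.88% of all miRNAs tested. The summed level of the 6 was 7719 to 10353 CPM in sham mice and 7078 to 8646 CPM in Acu/LFES mice. The part of other organs in this sum was not tested, so it is not a measure of gut alone. The most counted of them, miR-215-5p, was at 4798 to 7158 CPM in sham mice and 4275 to 6096 CPM in Acu/LFES mice. miR-429-3p, an epithelial member of this list picked after its value was seen, lay lower in the Acu/LFES mice without overlap with TMM factors. It was at 37.5 to 54.6 CPM in Acu/LFES mice against 76.2 to 146 CPM in sham mice. Of all miRNAs tested, 8.11% lay lower in this way, miR-375-3p among them. The other members of the gut list all overlapped between the groups. Log2 fold changes were 0.001 for miR-200a-3p and 0.40 for miR-194-5p. They were -0.43, -0.31 and -0.16 for miR-200b-3p, miR-215-5p and miR-192-5p. The part of either source in the level of miR-375-3p was not tested.

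Of 6 neuron miRNAs, 5 had a count and 2 were tested. edgeR's quasi-likelihood test called 0 at an adjusted or an unadjusted p under 0.05, against 0.00% and 8.88% of all miRNAs tested. The summed level of the 6, nearly all of it miR-128-3p, overlapped between the groups. It was 1817 to 2520 CPM in sham mice and 2033 to 2442 CPM in Acu/LFES mice. For miR-184-3p, the 4 miRNAs of surface epithelium all had a count and 3 were tested. Of these, 0 were called at either level, against the same shares of all miRNAs tested. The summed level of the 4, mostly miR-205-5p, was 3197, 1059 and 1086 CPM in sham mice 1, 2 and 3. It was 2405, 1717 and 3795 CPM in Acu/LFES mice 4, 5 and 6. Mouse 6 was the highest both in this sum and in miR-184-3p, while sham mouse 1 was second in the sum with 0 counts of miR-184-3p. The 3 tested all had a positive log2 fold change, with a median of 0.92 against 0.05 over all miRNAs tested. One of them, miR-31-5p, was higher without overlap, as 8.88% of all miRNAs tested were. Its nearest mice were sham mouse 1 at 26.0 CPM and Acu/LFES mouse 6 at 26.5 CPM. It had 18, 0 and 1 counts in sham mice 1, 2 and 3 and passed the filter only with the counts of the Acu/LFES mice. The filter thus favored a positive direction for miR-31-5p, and no shift is read from the median. The part of surface epithelium in the level of miR-184-3p was not tested.

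Of the 5 red cell miRNAs, 4 were tested. edgeR's quasi-likelihood test called 0 at an adjusted or an unadjusted p under 0.05, against 0.00% and 8.88% of all miRNAs tested. miR-451a, which red cells carry in abundance, was 692 to 1302 CPM in sham mice and 943 to 1907 CPM in Acu/LFES mice. miR-144-5p was 107 to 351 CPM in sham mice and 185 to 456 CPM in Acu/LFES mice. Both were highest in mouse 4, which had the lowest miR-375-3p and the highest miR-7a-5p. miR-486a-5p, the most counted of the list, was highest in sham mouse 2 instead. Its range was 278613 to 569570 CPM in sham mice and 68985 to 483307 CPM in Acu/LFES mice. The part of red cell RNA in the levels of the members was not tested. With mouse 6 left out, in which the miR-486 rows took the smallest share, the log2 fold change was -1.20 for miR-375-3p and 1.05 for miR-7a-5p.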

How the data were processed

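Small RNA of serum exosomes from 3 sham and 3 Acu/LFES mice was sequenced in a single lane, and groups were taken from the treatment labels. The table the authors deposited holds unnormalized whole-number counts of reads, with a row for each mature miRNA and a column for each mouse, and the submitters' processing notes name bcl2fastq, cutadapt 1.6 and DESeq2 1.26.0. The aligner, counter, miRNA annotation and allowed mismatches are not given in the sources used here. No mouse number occurs in both groups, and the fits are unpaired.

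The counts were fitted by edgeR 4.0.16 in R 4.3.3 with its default filter, TMM factors, the quasi-likelihood test and Benjamini-Hochberg adjustment over all 259 miRNAs tested, including miR-375-3p and miR-7a-5p. DESeq2 1.42.0, other scalings and filters, and leaving out each mouse were alternatives. The members and lists were chosen with earlier results of these data known, so no p is printed for a member. The named miRNAs are the members, partner arms with a count, the 4 most alike profiles (pseudocount 0.5), and, of each list, the most counted and those at an unadjusted p under 0.05, with miR-16-5p and miR-103-3p as references. Others were chosen after their values were seen, among them miR-429-3p, miR-451a, miR-144-5p, miR-31-5p and miR-3535. Library totals were 391708 to 1504137 counts. The fits were tested on simulated data. Figures were drawn with matplotlib 3.10.9.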

Additional observations from a re-analysis of the deposited data

How the results depend on the processing

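miR-375-3p kept a negative and miR-7a-5p a positive log2 fold change under every alternative run for them. DESeq2's Wald test, with its own size factors, put miR-375-3p at -1.16 and called it. With this test 1 member and 8 of all miRNAs, 3.09% of the 259 fitted, passed an adjusted p of 0.05. miR-375-3p was chosen with this contrast already known, so its call is a description and not a test. edgeR's quasi-likelihood test called 0 at that level and 23 at an unadjusted p under 0.05. The cause was not tested. Leaving out each mouse, the range was -1.28 to -1.01 for miR-375-3p, 0.35 to 1.41 for miR-7a-5p, lowest without Acu/LFES mouse 4, and 1.22 to 3.80 for the bound of miR-184-3p, an alternative chosen after seeing the data. The difference in the log2 ratio of miR-375-3p to miR-103-3p ran from -1.53 without sham mouse 2 to -0.60 without sham mouse 3, and was -1.25 against miR-16-5p and -1.15 against a geometric mean.

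At an unadjusted p under 0.05, 15 miRNAs were higher and 8 lower with TMM factors, 23 and 0 with plain totals, and 20 and 6 with totals without the miR-486 rows. With no filter, 53 miRNAs passed that level instead of 23. miR-7a-5p did not have at least 10 counts in every library and has no value under that filter. miR-184-3p fell below edgeR's default filter, and no fold is printed from the fit with no filter, since one against 0 counts depends on the prior count. miR-7b-5p had 0 counts and could not be fitted. With 3 mice in each group and counts as low as 5, changes in miR-7a-5p and miR-184-3p are measured only coarsely.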
